A study of Mus musculus with 4 samples.

Results

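Wide peaks are the stretches of 60 nt or more in the peak lists of SRSF1 and SRSF2, off the mitochondrial chromosome, where the protein was crosslinked to RNA. They were chosen by width alone, as end minus start. The SRSF1 list held 411 of them among 50983 peaks and the SRSF2 list 446 among 56336 peaks, 857 of 107319 in all. SRSF1 and SRSF2 are SR proteins, which carry RNA recognition motifs and a domain rich in serine and arginine, bind short degenerate sequences in pre-mRNA and act in constitutive and alternative splicing. A CLIP-seq peak is a stretch where RNA fragments pile up that were crosslinked with ultraviolet light and precipitated with 1 protein. How the ends of the listed peaks were set is not known, and the shortest measured 6 nt. SR proteins are known above all for binding exonic splicing enhancers, where they help the splicing machinery to recognise the exon.

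The study asked how the SR proteins cooperate and compete in regulated splicing. The SRSF1 library came from mouse embryonic fibroblasts (MEFs) with HA-tagged SRSF1 in a tetracycline-repressible line, and the SRSF2 library from the matching SRSF2 line. Both lines were kept without tetracycline and precipitated with the same antibody against HA. SRSF1 libraries of cells that received siRNA, control or directed at SRSF2, are not analysed here. Protein and line cannot be told apart, and with 1 library per protein there was no replicate error and no p-value. Intervals are exact (Clopper-Pearson) 95% binomial intervals and cover counting error only, since neighbouring peaks are not independent. Of 12 fibroblast markers 2 had a peak in a unit with a gene symbol (Col1a1 and Postn). Of 5 epithelial markers 1 had one (Krt19), and of the macrophage, endothelial, neuronal and skeletal muscle markers 0. Only 15.9% of the peaks lay in such units, so a marker without a peak here was not shown to be unbound.

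Wide peaks made up 0.807% of the SRSF1 peaks off the mitochondrial chromosome (interval 0.731 to 0.889) and 0.793% of the SRSF2 peaks (0.721 to 0.870). They held 3.03% of the bases under SRSF1 peaks and 3.08% under SRSF2 peaks. The median wide peak was 69 nt long for SRSF1 and 68 nt for SRSF2, against a median of 19 nt for narrower peaks in each list. Most lay close to the limit: 216 of the SRSF1 and 241 of the SRSF2 wide peaks measured 60 to 69 nt, and 28 and 48 reached 100 nt. At the limit itself, 46 SRSF1 peaks of 60 or 61 nt had a median score of 17 and 43 were overlapped by SRSF2, beside 71 peaks of 58 or 59 nt with a median of 15 and 60 overlapped. In the SRSF2 list, 55 peaks of 60 or 61 nt had a median of 17 with 43 overlapped, beside 74 of 58 or 59 nt with 17.5 and 66 overlapped. The share overlapped was thus higher just inside the limit for SRSF1 and lower for SRSF2.

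The number of wide stretches also depends on whether neighbouring peaks are joined. Some peaks of the same list lay a few nt apart. Another peak of the own list lay within 10 nt of an end for 23.1% of wide SRSF1 and 24.4% of wide SRSF2 peaks. The shares of narrower peaks were 14.5% and 16.8%. At the same score they were 22.4% wide against 17.4% narrower for SRSF1 and 24.3% against 20.1% for SRSF2. Joining peaks within 2 nt gave 557 wide SRSF1 and 634 wide SRSF2 stretches, and joining within 10 nt gave 1027 and 1197. Of the last, 621 and 756 were made of narrower peaks only. The number of wide stretches thus depended more on the joining distance than on the list.

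Wide peaks carried higher scores than narrower ones. Each peak carries a deposited whole-number score, 4 or more, whose meaning was not given in the sources used here. It comes from the same library and peak as the width, so this is a description. Wide SRSF1 peaks ran from 7 to 318 with a median of 19, against 4 to 354 with a median of 8 for narrower SRSF1 peaks. Wide SRSF2 peaks ran from 6 to 416 with a median of 21.5, against 4 to 368 with a median of 8. At scores of 60 or more, 21.8% of SRSF1 and 17.2% of SRSF2 peaks were wide, and at scores of 4 to 9 only 0.0635% and 0.0352%. Within the wide peaks, width and score were loosely related, with a Spearman rho of 0.305 over 411 SRSF1 peaks and 0.309 over 446 SRSF2 peaks, where all peaks of a list share 1 library.

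**Figure D1:**
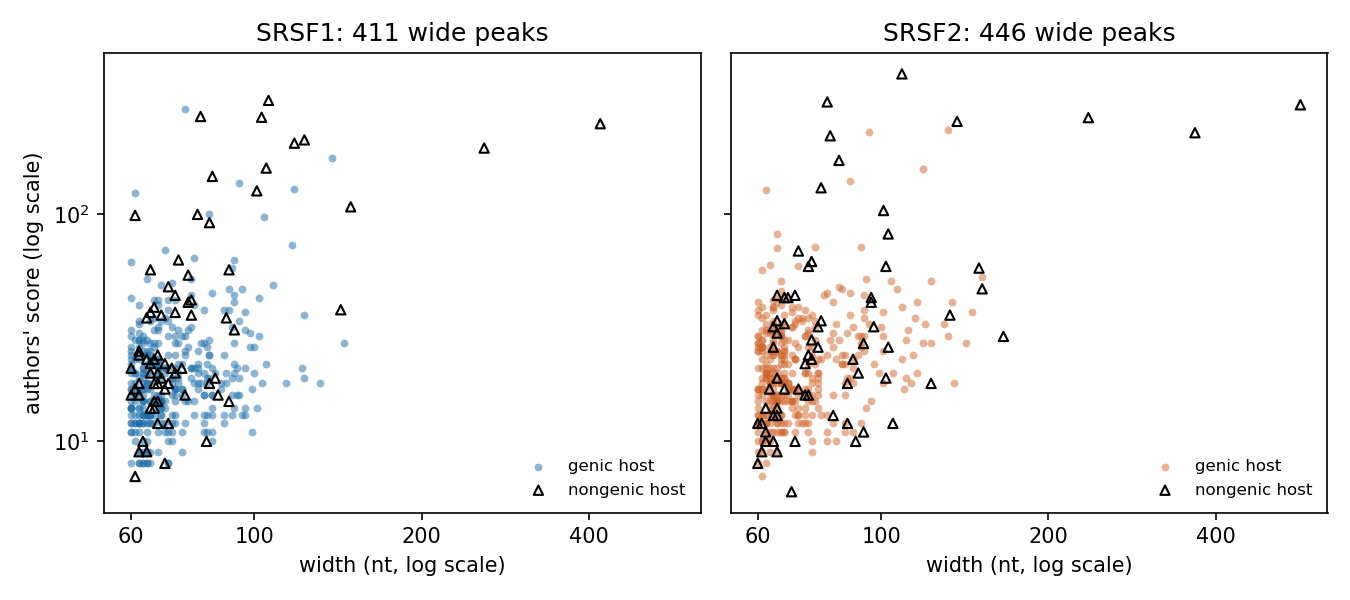
Width (x axis, nt, log scale) against the authors' score (y axis, log scale) for every wide peak of SRSF1 (left, 411 peaks) and SRSF2 (right, 446 peaks), with filled points for genic and open triangles for nongenic hosts. Most points sit near 60 to 100 nt at scores of 10 to 40, and the widest, at 419 nt for SRSF1 and 568 nt for SRSF2, are nongenic.

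The highest and the widest peaks were largely the same stretches in both lists, and most were in regions that the authors called nongenic. Coordinates are mm9, and no transcript was assigned to them. The top score of both lists fell on chromosome 9, minus strand, with an SRSF1 peak of 106 nt from 78023111 to 78023216 (score 318) and an SRSF2 peak of 109 nt from 78023111 to 78023219 (score 416). The nearest units with a gene symbol on either side of it were those of Gclc and Cgas. A nongenic region on chromosome 17, plus strand, held the widest peaks, an SRSF1 peak of 419 nt from 39984619 to 39985037 (score 251) and an SRSF2 peak of 568 nt from 39984619 to 39985186 (score 304). There the SRSF1 list had a further peak of 149 nt from 39985040 to 39985188, so that 1 SRSF2 peak overlapped 2 SRSF1 peaks with a gap of a few bases between them. The same region held a pair with identical ends, 39984131 to 39984210, with scores of 270 for SRSF1 and 313 for SRSF2.

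Other wide peaks of high rank followed the same pattern. On chromosome 11, minus strand, an SRSF1 peak of 259 nt from 108873100 to 108873358 (score 196) lay inside an SRSF2 peak of 367 nt from 108872992 to 108873358 (score 229), which also held an SRSF1 peak from 108872993 to 108873097 (score 160). An SRSF2 peak of 236 nt on chromosome 17 from 39983409 to 39983644 (score 267) covered SRSF1 peaks of 103 nt from 39983412 to 39983514 (score 268) and of 123 nt from 39983520 to 39983642 (score 213). In each of these places 1 longer SRSF2 peak covered 2 SRSF1 peaks. The second score of the SRSF1 list was a peak of 75 nt in an unnamed cluster (chromosome 19, minus strand, 5796999 to 5797073, score 291), where both SRSF2 partners were narrower and the better one scored 269. The fifth score of the SRSF2 list was a peak of 137 nt on chromosome 6, plus strand, 3151469 to 3151605 (score 257), with a best SRSF1 partner of score 147. The remaining peaks among the 5 widest of a list were 145 nt on chromosome 15 (minus strand, 76963150 to 76963294, SRSF1, score 27), 143 nt on chromosome 3 (plus strand, 5860645 to 5860787, SRSF1, score 38), 166 nt on chromosome 14 (minus strand, 51427268 to 51427433, SRSF2, score 29) and 152 nt on chromosome 10 (plus strand, 39978334 to 39978485, SRSF2, score 47). The widest peaks thus had scores from 27 to 304.

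Wide peaks lay in nongenic regions more often than narrower peaks of the same score. The share was 17.0% for wide SRSF1 peaks (70 of 411, interval 13.5 to 21.0) and 15.7% for wide SRSF2 peaks (70 of 446, 12.4 to 19.4), against a background of 7.9% of all SRSF1 and 8.81% of all SRSF2 peaks. With narrower peaks weighted to the scores of the wide ones, the shares were 15.01% wide against 8.05% narrower for SRSF1, a difference of 6.96 percentage points, and 14.1% against 7.06% for SRSF2, a difference of 7.06 points. The wide shares' intervals (11.6 to 18.9 and 11.0 to 17.8) lay above the narrower values. The SRSF1 difference turned to -0.811 points with the limit at 80 nt, while the SRSF2 difference was 12.7 points there. The 140 nongenic wide peaks came from 79 of 3344 nongenic regions, 38 of them with a single one, and the chromosome 17 region alone gave 7 SRSF1 and 5 SRSF2 peaks. Without that region the differences were 7.38 and 7.27 points. Of the genic kinds, unnamed clusters held 291 SRSF1 and 313 SRSF2 wide peaks, RefSeq transcripts 49 and 63, and UCSC transcripts 1 and 0. Against narrower peaks of the same score, the share in unnamed clusters differed by -4.67 points for SRSF1 and -4.47 for SRSF2, and that in RefSeq transcripts by -2.20 and -2.18 points.

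Nearly all wide peaks were overlapped by the other protein. Of the wide SRSF1 peaks 383 of 411 (93.2%, interval 90.3 to 95.4) shared at least 1 nt with an SRSF2 peak of their strand, and of the wide SRSF2 peaks 392 of 446 (87.9%, 84.5 to 90.8) with an SRSF1 peak. The background was 38.6% of all SRSF1 and 35.2% of all SRSF2 peaks. On the opposite strand 1 wide peak of each list met a peak of the other. Among narrower peaks of the same score 70.2% of SRSF1 and 67.3% of SRSF2 peaks were overlapped, so that the wide peaks stood 22.7 and 20.2 percentage points higher, over the 393 SRSF1 and 432 SRSF2 wide peaks whose score also occurred among narrower ones. The difference was above 0 on each of 20 chromosomes in both lists, although on chromosome 6 the SRSF2 difference was 0.0154 points.

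A longer peak has more room for an overlap. Most of the pooled excess was lost when all peaks were set to equal width, and the cause was not tested. With every peak of both lists set to 19 nt about its midpoint, the median width of all peaks, 72.0% of the wide SRSF1 peaks (interval 67.3 to 76.4) were overlapped against 68.7% of the narrower ones of the same score, and 70.4% (65.8 to 74.6) against 66.0% for SRSF2. These pooled differences of 3.34 and 4.40 points lay within the counting error of the wide shares. The setting keeps only the middle of a wide peak, so a partner nearer its ends can be missed. By midpoints within 50 nt of each other, with widths as listed, the differences were 17.6 points for SRSF1 and 13.5 for SRSF2. By score class, at equal width, the narrower value lay below the wide interval in some classes of low score. Scores were not matched within the classes given here, so part of a difference can be one of score. In the lowest class narrower peaks went down to 4, and wide ones to 7 for SRSF1 and 6 for SRSF2. For SRSF1 these were the classes of 4 to 9 (59.1% wide against 30.04% narrower) and 10 to 14 (63.6% against 51.4%), and for SRSF2 those of 10 to 14 (56.5% against 43.2%) and 15 to 19 (71.3%, interval 61.4 to 79.9, against 58.6%). In the other classes the narrower value lay inside the wide interval. It was the higher one for SRSF1 from 60 (70.4% wide against 79.4%). For SRSF2 it was higher at 30 to 59 (77.2% against 82.1%) and from 60 (78.3% against 87.4%). By bases, 63.7% of a wide SRSF1 peak was covered by SRSF2 peaks on average against 56.1% of a narrower one of the same score, and 58.9% against 53.6% for SRSF2. The excess as listed was smaller at high scores than at 10 to 14. At scores of 10 to 14, 89.8% of wide SRSF1 peaks were overlapped against 52.2% of narrower ones, and 78.8% against 43.6% for SRSF2. At 30 to 59 the values were 100% against 84.8% for SRSF1 and 94.1% against 84.1% for SRSF2. Below a score of 10, where wide peaks were few, 19 of 22 wide SRSF1 peaks (86.4%) were overlapped against 28.9% of narrower ones, and 4 of 12 wide SRSF2 peaks (33.3%) against 24.5%.

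**Figure D2:**
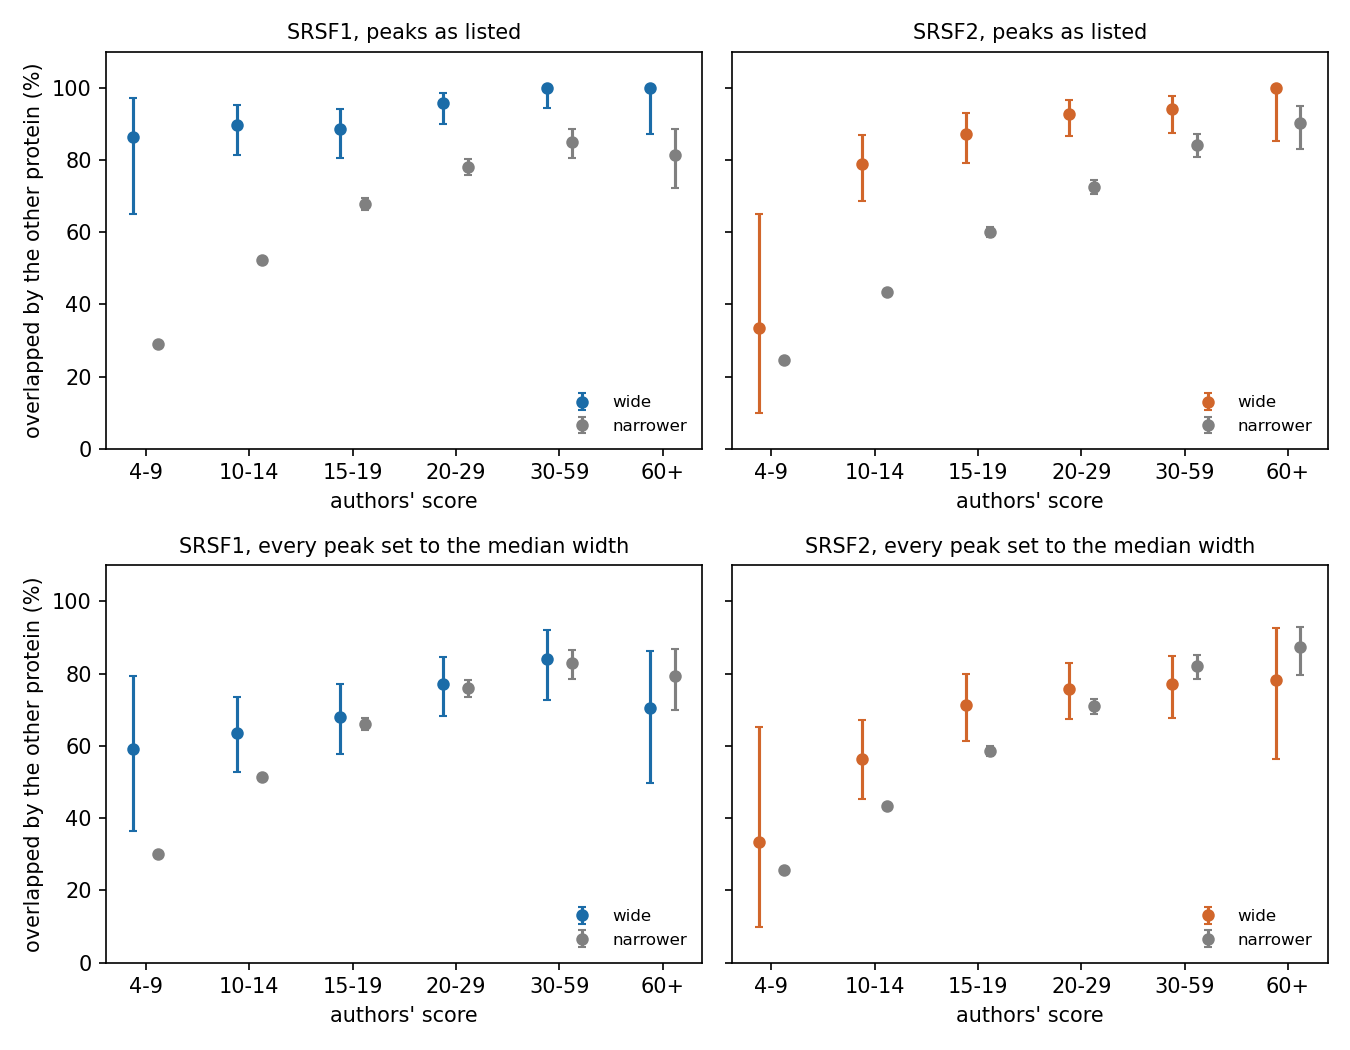
Share of peaks overlapped by the other protein (y axis, %) by the authors' score (x axis) for wide (coloured, left of each pair) and narrower peaks (grey), with exact 95% binomial intervals, as listed (upper panels) and with every peak set to the median width (lower panels). As listed, wide SRSF1 peaks at scores of 10 to 14 reach 89.8% against 52.2% for narrower ones, and at equal width they reach 63.6% against 51.4% there. At equal width the narrower value lies inside the wide interval from a score of 15 for SRSF1 and from 20 for SRSF2. It lies above the wide value from 60 for SRSF1 and from 30 for SRSF2.

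The difference also depended on the host. Against narrower peaks of the same host unit, whatever their score, wide peaks were overlapped 37.8 points more often for SRSF1 (93.0% against 55.2%, 400 wide peaks) and 38.1 points for SRSF2 (87.7% against 49.6%, 430 wide peaks). At equal width these same-unit differences were 18.1 and 22.1 points. Against narrower peaks of both the same unit and the same score, which exist for 122 wide peaks of each list, the differences were 10.9 and 13.3 points. At equal width in that last comparison the value was -13.3 points for SRSF1 (66.4% against 79.7%) and 0.492 points for SRSF2 (65.6% against 65.1%). In this comparison the 122 wide SRSF1 peaks were thus overlapped less often than narrower ones, and the 122 wide SRSF2 peaks about as often. Equal width again keeps only the middle of a wide peak, so partners nearer its ends can be missed.

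A wide peak of 1 protein was often met by a wide peak of the other. Of the wide SRSF1 peaks 125 (30.4%, interval 26.0 to 35.1) overlapped a wide SRSF2 peak, and of the wide SRSF2 peaks 122 (27.4%, 23.3 to 31.7) a wide SRSF1 peak, where the background was 1.17% of all SRSF1 and 1.03% of all SRSF2 peaks. Taking only peaks that had a partner, 29.6% of the wide SRSF1 peaks against 4.49% of narrower ones of the same score had a wide partner, and 28.4% against 3.93% for SRSF2. At equal width the shares among all peaks of the same score were 22.6% against 1.90% for SRSF1 and 20.8% against 1.60% for SRSF2. The excess of wide partners was thus present with every peak at equal width too. That setting keeps only the middle of a wide partner, so a narrower peak near the partner's ends no longer meets it. It therefore cannot tell how much of the excess comes from length. The widest partner had a median of 41 nt for wide SRSF1 peaks against 23 nt for narrower ones, and of 41.5 nt against 23 nt for SRSF2. Most partners were still narrower than 60 nt: 258 wide SRSF1 and 270 wide SRSF2 peaks were met by narrower peaks alone. Wide SRSF1 peaks had 2 partners in 125 cases and 3 or more in 35, and wide SRSF2 peaks in 139 and 30. Of the narrower peaks 1.39% for SRSF1 and 1.06% for SRSF2 had 2 or more. Scores were not matched here, and a longer peak has more room for several partners.

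In the 126 pairs of overlapping wide peaks most 5′ ends and most 3′ ends lay close together, but fewer pairs matched at both ends. The 5′ ends lay within 5 nt of each other in 77 pairs (61.1%) and the 3′ ends in 79 (62.7%), with a median distance of 3 nt at each end. Both ends lay within 5 nt in 53 pairs (42.1%), and 8 pairs had identical ends. Overlapping narrower peaks were not compared in this way. Neither protein's peak was regularly the wider: the SRSF1 peak was wider in 50 pairs, the SRSF2 peak in 66, and 10 were equal. The scores of the pairs had a Spearman rho of 0.728 and their widths of 0.492 over the 126 pairs, all from the same 2 libraries. Of the pairs 44 (34.9%) were in nongenic regions. The genic pair with the highest scores lay in an unnamed cluster on chromosome 5, plus strand, with an SRSF1 peak from 147072568 to 147072705 (138 nt, score 177) and an SRSF2 peak from 147072570 to 147072701 (132 nt, score 236). The next peaks of that cluster were paired as well, at 147072820 to 147072937 for SRSF1 (118 nt, score 129) and 147072819 to 147072937 for SRSF2 (119 nt, score 158).

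**Figure D3:**
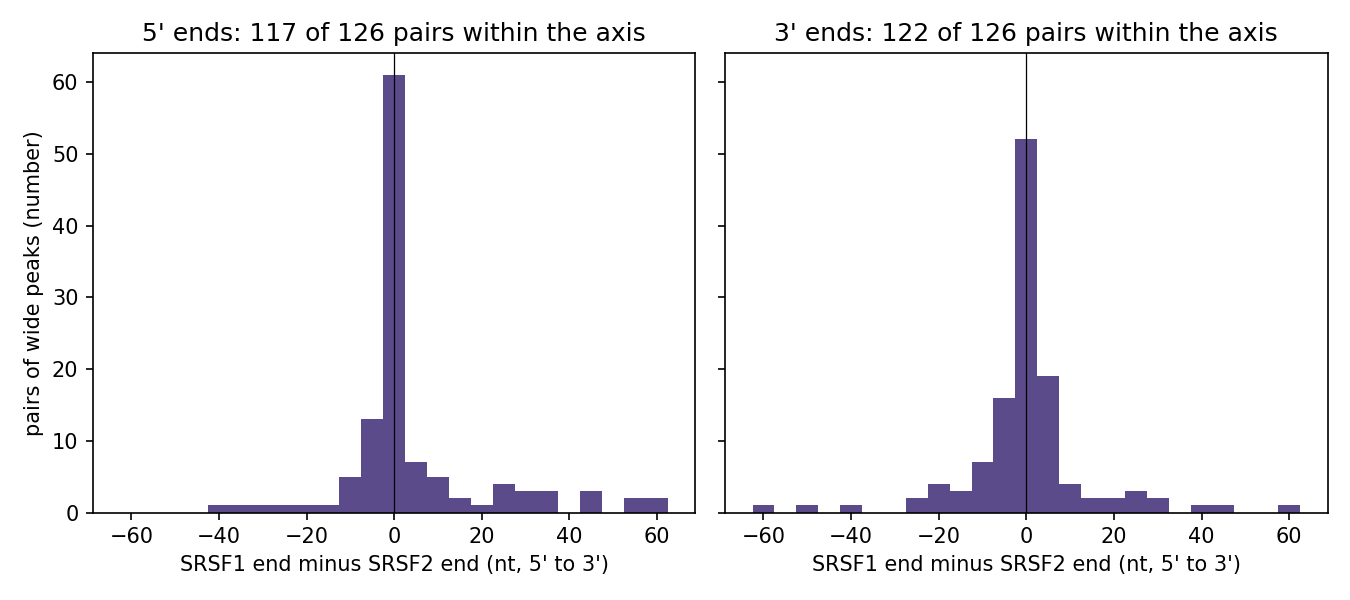
Distance between the ends of overlapping wide SRSF1 and SRSF2 peaks (x axis, nt along the RNA, SRSF1 minus SRSF2) for 5′ ends (left) and 3′ ends (right), as numbers of pairs (y axis) in classes of 5 nt. Both distributions stand at 0, with 77 and 79 of 126 pairs within 5 nt, and 117 and 122 pairs fall within the axes.

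Wide peaks without a partner were few. There were 28 for SRSF1 and 54 for SRSF2, with a median score of 15 in both lists, against 20 and 23 for those with a partner. The nearest midpoint of the other protein lay within 500 nt for 13 of the 28 and 35 of the 54. Of those in genic units, 24 of 24 SRSF1 and 46 of 48 SRSF2 peaks had a peak of the other protein elsewhere in the unit. No share of narrower peaks was worked out beside these counts, so they are not particular to wide peaks. Host units of wide peaks held a median of 21 peaks of the same list, against 11 for narrower SRSF1 and 12 for narrower SRSF2 peaks. The highest-scoring was an SRSF2 peak of a cluster with no symbol (chromosome 9, minus strand, 66883846 to 66883924, 79 nt, score 44), with the nearest SRSF1 midpoint 2130 nt away. Among genes with a symbol, Lgals1, which encodes the galactose-binding lectin galectin-1, had a wide SRSF2 peak of score 34 (chromosome 15, plus strand, 78760084 to 78760147) whose nearest SRSF1 midpoint was 84 nt away, and Snrpd3, a core protein of the spliceosomal snRNPs, one of score 21 with a distance of 1360 nt. Lgals1 and Snrpd3 were chosen after their values were seen.

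Along their host units, wide peaks lay further towards the 5′ end than narrower peaks of the same units. Position was taken from the span between the first and the last peak of either protein in a genic unit with at least 10 peaks, since no exon or transcript start was assigned. Of 334 wide SRSF1 peaks 95 (28.4%, interval 23.7 to 33.6) lay in the first 20% of that span against 18.3% of narrower SRSF1 peaks of the same units, and of 360 wide SRSF2 peaks 141 (39.2%, 34.1 to 44.4) against 18.8%. In the last 20% the order was the other way, with 18.9% of wide SRSF1 peaks against 27.2% and 16.1% of wide SRSF2 peaks against 31.9%, differences of -8.35 and -15.8 points. These came to -5.22 and -7.95 points against narrower peaks of the same score, and to -2.92 and -12.9 points against narrower peaks of both the same unit and score. The mean wide position was further 5′ than the mean narrower one in 172 of 240 units for SRSF1 (71.7%, interval 65.5 to 77.3) and in 208 of 279 for SRSF2 (74.6%, 69.02 to 79.6). Wide SRSF2 peaks were the first peak of their list in the unit in 45 cases (12.5% against 4.61% of narrower ones), and wide SRSF1 peaks in 20 (5.99% against 4.94%). Matched on score in place of the unit, the narrower shares in the first 20% were 20.6% for SRSF1 and 24.6% for SRSF2. Matched on both, the differences were 9.06 points over 121 wide SRSF1 peaks and 10.4 points over 115 wide SRSF2 peaks. For SRSF2 this is below the 20.4 points found by unit alone.

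**Figure D4:**
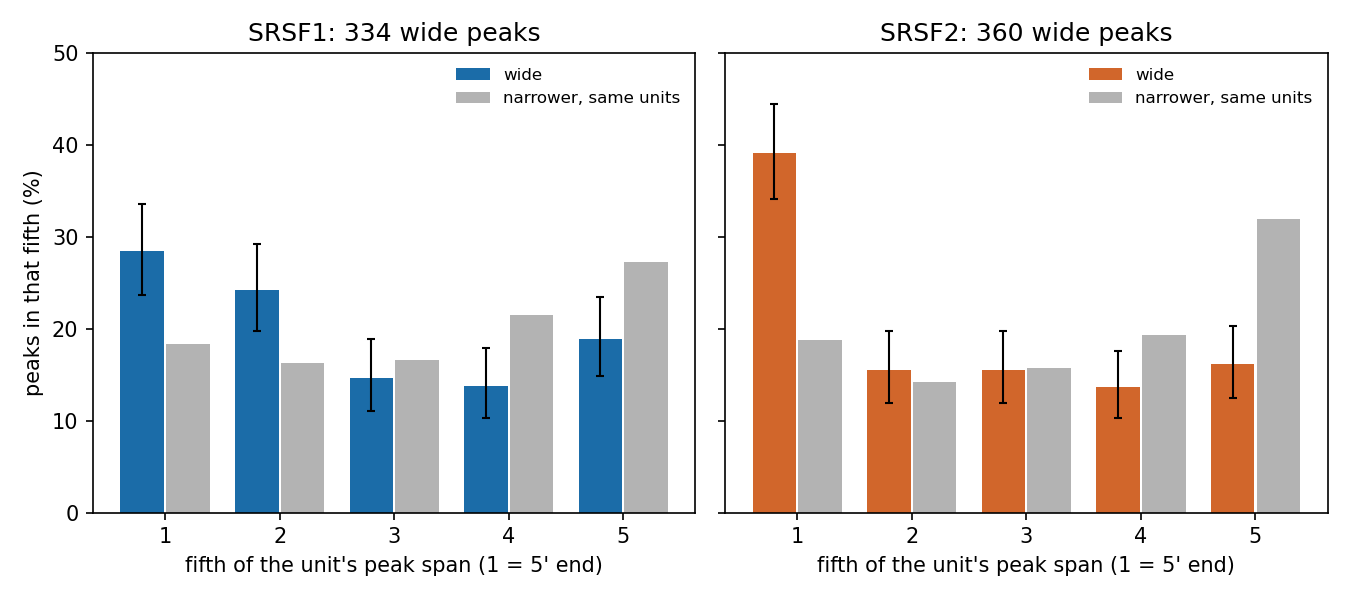
Share of peaks (y axis, %) in 5 equal parts of the span of their host unit's peaks (x axis, from the 5′ end) for wide peaks (coloured, left bars, exact 95% binomial intervals) and narrower peaks of the same units (grey, weighted to the wide peaks' units). Wide SRSF2 peaks reach 39.2% in the first part against 18.8% for narrower ones, and wide SRSF1 peaks 28.4% against 18.3%.

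Wide peaks were spread over many host units. Of 8732 genic units with a peak 444 had a wide one, a background of 5.08%, with 247 for SRSF1, 295 for SRSF2 and 98 for both. The 98 made up 39.7% of the units with a wide SRSF1 peak and 33.2% of those with a wide SRSF2 peak. The background for these shares is 295 and 247 of all 8732 units. Sharing was not compared among units of like peak number. A single wide peak was found in 308 of the 444 units, and 54 had 3 or more. Units with many peaks had one more easily: the median was 40 peaks in units with a wide peak against 5 in the others, and 55.3% of the 293 units with at least 50 peaks had one.

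The unit with most wide peaks was a cluster without a gene symbol, spanning 77591040 to 77672540 on the minus strand of chromosome 15, between the named units of Vps28 and Eif3d. It held 12 wide among 107 SRSF1 peaks and 11 wide among 114 SRSF2 peaks, all 23 of them overlapped by the other protein, at scores of 18 to 73. Its highest was an SRSF1 peak of 117 nt from 77597166 to 77597282 (score 73) over an SRSF2 peak of 80 nt from 77597189 to 77597268 (score 45). A cluster on chromosome 10, minus strand, 12122694 to 12588836, had 7 wide SRSF1 and 5 wide SRSF2 peaks, and a cluster on chromosome 1, minus strand, 45432773 to 45559904, had 6 of each. In contrast, a cluster on chromosome 3, minus strand, 55429598 to 55987024, had 6 wide among 82 SRSF1 peaks and 0 among 61 SRSF2 peaks, and a further one on that chromosome, plus strand, 68808984 to 68838455, had 4 among 45 and 0 among 21. The most wide SRSF2 peaks in a unit with no wide SRSF1 peak were 3. These counts are the extremes of 444 units and were not tested.

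**Figure D5:**
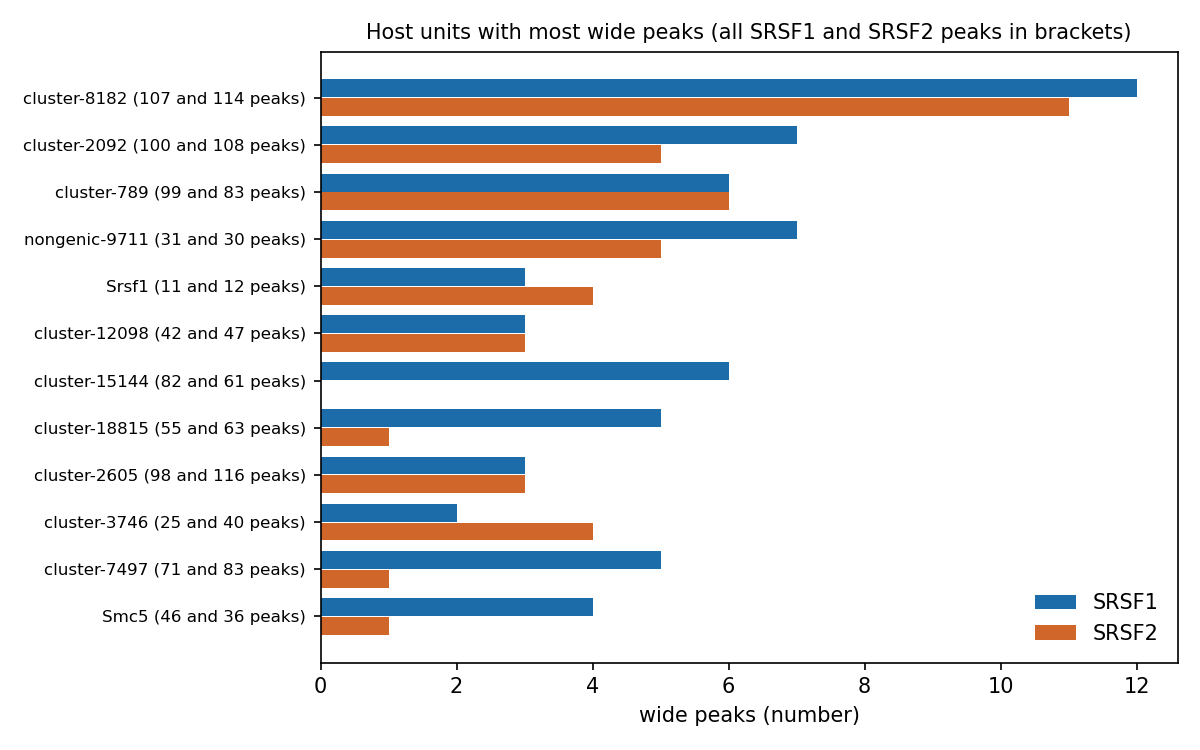
Number of wide peaks (x axis) of SRSF1 (blue, upper bars) and SRSF2 (orange, lower bars) in the 12 host units with most of them (y axis, gene symbol or the authors' unit name, with all SRSF1 and SRSF2 peaks in brackets). The first unit has 12 SRSF1 and 11 SRSF2 wide peaks, and Srsf1 has 3 and 4 among only 11 and 12 peaks.

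Among the 2155 genes with a symbol, 76 had a wide peak (3.53%), 17 of them of both proteins, and together they held 112 of the 857 wide peaks. Srsf1, the gene of SRSF1 itself, had most. On chromosome 11, plus strand, 3 of its 11 SRSF1 peaks and 4 of its 12 SRSF2 peaks were wide, 30.4% of its peaks against 0.657% over all genes with a symbol. They formed 3 sites. The first had an SRSF1 peak from 87861384 to 87861475 (92 nt, score 41) over SRSF2 peaks from 87861384 to 87861448 (65 nt, score 32) and from 87861455 to 87861515 (61 nt, score 31). The second had an SRSF1 peak from 87862619 to 87862710 (92 nt, score 63) and an SRSF2 peak from 87862621 to 87862696 (76 nt, score 72). The third had an SRSF1 peak from 87862912 to 87863002 (91 nt, score 58) and an SRSF2 peak from 87862916 to 87863019 (104 nt, score 51). All 3 sites were thus wide in both libraries, and the SRSF1 peaks there were the 3 highest-scoring wide SRSF1 peaks of named genes. The lists do not tell RNA of the tagged SRSF1 construct in the SRSF1 line from that of the Srsf1 gene. The wide SRSF2 peaks at the same sites came from the other line, and the source of the RNA was not tested in either line.

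Of the other named SR protein genes, Tra2b, which encodes a splicing activator related to the SR proteins, had 1 wide SRSF2 peak among 6 SRSF1 and 7 SRSF2 peaks (chromosome 16, minus strand, 22259148 to 22259213, 66 nt, score 19). Srsf3 and Srsf9 had peaks but no wide one, and 9 of the 13 genes of the list had no named unit with a peak, Srsf2 among them. In all, 8 of 62 peaks in SR protein genes were wide (12.9%), 7 of them in Srsf1. Of the genes of hnRNPs and other splicing regulators, 8 of 51 had a peak in a named unit and 1 had wide ones, 4 of 135 peaks (2.96%, beside 0.657% over all genes with a symbol). Their median was 13 peaks per gene. This was Hnrnpd, whose product binds AU-rich elements of mRNAs and influences their decay, with 2 wide peaks of each protein. Its SRSF1 peaks on chromosome 5, minus strand, 100392819 to 100392885 (67 nt, score 22) and 100393697 to 100393757 (61 nt, score 23), were overlapped by narrower SRSF2 peaks alone, and its SRSF2 peaks were 100393023 to 100393091 (69 nt, score 32) and 100407408 to 100407468 (61 nt, score 21). The last had its nearest SRSF1 midpoint 11083 nt away. Unlike Srsf1, Hnrnpd had no pair in which both peaks were wide.

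Smc5, a subunit of the SMC5/6 complex of genome maintenance, had 4 wide SRSF1 peaks and 1 wide SRSF2 peak among 46 and 36. The SRSF1 peaks were 64 to 68 nt long with scores of 13 to 18, and 1 of them, at chromosome 19, minus strand, 23310375 to 23310438, had no SRSF2 partner. The SRSF2 peak was 101 nt long (23343246 to 23343346, score 29). None of the 5 was paired with a wide peak of the other protein. Stk3, a kinase of the Hippo pathway, had 3 wide SRSF1 peaks of 84, 67 and 72 nt (scores 10, 21 and 24) among 23 and no wide SRSF2 peak among 17, and all 3 were overlapped by narrower SRSF2 peaks. In Smc5 and Stk3 the wide peaks were mostly of SRSF1, a difference that was not tested.

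Col1a1, Calu and Fnbp4 had 3 wide peaks each, as did Stk3. Col1a1, a chain of type I collagen, had 1 wide SRSF1 peak (chromosome 11, plus strand, 94799266 to 94799331, 66 nt, score 35) inside a wide SRSF2 peak (94799247 to 94799331, 85 nt, score 47), and a second wide SRSF2 peak from 94812848 to 94812929 (82 nt, score 41). Calu, which encodes the calcium-binding protein calumenin, had a wide SRSF1 peak (chromosome 6, plus strand, 29322532 to 29322613, 82 nt, score 18) overlapping a wide SRSF2 peak (29322478 to 29322586, 109 nt, score 39), and a wide SRSF2 peak of 70 nt elsewhere. Fnbp4, a formin-binding protein gene, had the same make-up, 1 wide SRSF1 and 2 wide SRSF2 peaks among 26 and 25. In these 3 genes 1 site was wide in both libraries. In the extracellular matrix list 7 of 30 genes had a named peak and 3 a wide one: Col1a1, Col6a1 with 1 of each protein, and the laminin chain Lamc1 with 1 SRSF1 peak. That came to 6 of 292 peaks, or 2.05%, beside 0.657% of the peaks of all genes with a symbol. These genes also had more peaks, with a median of 33 per gene against 4 over all genes with a symbol.

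In the list of translation factors and chaperones 10 of 28 genes had a named peak and 4 a wide one, 7 of 317 peaks (2.21%), with a median of 32 peaks per gene. Hsp90ab1, a cytosolic heat shock protein, had 2 wide SRSF1 peaks (61 and 72 nt, scores 28 and 27) and no wide SRSF2 peak. Hsp90b1, its relative in the endoplasmic reticulum, had a wide SRSF1 peak of score 38 and a wide SRSF2 peak of score 44 at different places. P4hb, a protein disulfide isomerase, had 2 wide SRSF2 peaks, and the initiation factor gene Eif3c 1. In the actin cytoskeleton and motor list 8 of 29 genes had a named peak and 2 had 1 wide SRSF2 peak each, the actin crosslinker gene Flna and the tropomyosin gene Tpm4. That was 2 of 373 peaks, or 0.536%, near the 0.657% of all genes with a symbol. Of the ribosomal protein genes, 1 of 9 with a named peak had a wide one, Rpl7a (SRSF2, chromosome 2, plus strand, 26768369 to 26768433, 65 nt, score 71). That was 1 of 30 peaks (3.33%), beside 0.657% over all genes with a symbol, and rests on a single wide peak. Rpl7a and Hsp90ab1 have processed pseudogenes, so the assignment of their reads is uncertain. The 25 histone genes with 50 peaks and the 2 noncoding RNA genes with 4 peaks in named units had no wide peak. With a median of 2 peaks per gene in both lists, these genes offered few peaks for a wide one to occur in. The noncoding RNA list held 14 genes. Peaks in nongenic regions and unnamed clusters, where the highest-scoring wide peaks lay, were not assigned to any of them. Wide peaks on such RNAs are therefore not excluded.

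In all 7 genes with a symbol had 3 or more wide peaks and 15 had 2, among them Kat6a with 2 of SRSF1 and Zfhx4 with 2 of SRSF2, both named after their values were seen. Ano6, a lipid scramblase, Anp32b, an acidic nuclear phosphoprotein, Bsg, the membrane glycoprotein basigin, and Cers5, a ceramide synthase, had 1 of each protein, and in each of these genes the other protein overlapped both. Anp32b had them among only 6 peaks. The wide SRSF2 peak of Bsg (chromosome 10, plus strand, 79172500 to 79172563) scored 42 over an SRSF1 partner of 21. Pcolce, an enhancer of procollagen processing, had a wide SRSF2 peak of 72 nt with a score of 35.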

How the data were processed

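CLIP-seq libraries of SRSF1 and SRSF2 from MEFs were compared, 1 per protein. The authors deposited for each a list of peaks with start, end, name, score and strand, on mm9 per the submitters' processing notes. Aligner, peak caller and threshold were not given in the sources used here, and neither was the meaning of the deposited score. Read depth is unknown, so precision rests on the number of peaks.

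Overlap meant at least 1 nt on the same strand and was checked against bedtools 2.31.1. Narrower peaks were averaged per exact score, host unit or both, and weighted to the wide peaks with the same value. Wide peaks with no such match were left out, 18 for SRSF1 and 14 for SRSF2 by score. The matching was tested on simulated data. Shares carry exact 95% intervals (scipy 1.17.1). RefSeq names of GRCm38.p6 supplied the gene symbols and nothing else: 2155 of 2169 accessions matched. Sequences under the peaks and their exons were not analysed here, since no mm9 genome was used.

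Named genes were the 10 with most wide peaks (ties at 2 wide peaks, shared by 15 genes, went by alphabet), the 10 highest-scoring named wide peaks, 5 highest and 5 widest peaks of each list, the 5 best pairs and up to 4 genes per list. 1 gene that this rule names is not reported here. The members, the lists and the comparison of positions were chosen with earlier results of these data known. Alternatives varied the width limit, overlap, matching and the peaks or units kept.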

Additional observations from a re-analysis of the deposited data

Results flagged for a closer look

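The mitochondrial chromosome, left out of the results above, also carried wide peaks. The SRSF1 list had 4 wide among 63 mitochondrial peaks (6.35%, interval 1.76 to 15.5, scores 31 to 250), beside 0.807% of its other peaks, and the SRSF2 list had 3 among 79 (3.80%, 0.790 to 10.7, scores 60 to 316), beside 0.793%. All 7 were overlapped by the other protein.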

How the results depend on the processing

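No paired analysis was possible because each protein has 1 library and no test was made. Where a value below left its counting interval, the cause was not tested beyond what the setting itself changes. Values are given for SRSF1 and then SRSF2. With wide taken from 50 nt, the share of wide peaks was 1.78% and 1.69%, the overlap 88.6% for SRSF1, the score median's excess over narrower peaks 9 and 11, and the host units 507 and 570. From 80 nt these were 0.212% and 0.210%, 97.2% and 93.2%, 14 and 20, and 70 and 76 units, with 35.2% of SRSF1 peaks met by a wide partner and nongenic differences of -0.811 and 12.7 points. Keeping each list's upper 50% by score, the share was 1.56% and 1.31%, the overlap 86.8% and 79.96%, the score excess 9 and 11, and the overlap difference 17.8 and 15.5 points. With every peak at the median width the overlap was 71.8% and 70.4%, its difference 3.34 and 4.40 points, and 24.3% and 22.4% met a wide partner. On the opposite strand the overlap was 0.243% and 0.224%, its difference 0.230 and 0.214 points, and 0 met a wide partner. The overlap difference was 17.6 and 13.5 points by midpoints within 50 nt, 26.5 and 24.9 with 10 score classes, 55.0 and 53.1 without weights, 37.8 and 38.1 in the same unit, 10.9 and 13.3 in the same unit at the same score, and 26.4 for SRSF1 in RefSeq units. At the median width it was 18.1 for SRSF1 in the same unit and, at the same score as well, -13.3 and 0.492. With 10 score classes the nongenic difference was 11.7 and 11.2 points. Merging within 10 nt gave wide shares of 2.19% and 2.34%. At the 5′ end the SRSF2 position difference was 14.95 points by score and 10.4 by unit and score, and at the 3′ end it was -7.95 by score, with -2.92 for SRSF1 by unit and score. Without each of 21 chromosomes in turn, the overlap ran from 92.7% to 94.5% and 87.3% to 88.3%, its difference from 22.0 to 23.7 and 19.5 to 21.1 points, and the nongenic difference from 5.46 to 7.82 and 6.24 to 7.65 points. Settings on host units, own-list neighbours and positions not in the original plan were chosen after seeing the data. In all, 404 values stayed within the reported value's interval (host-unit counts within 1.5 times of it), 58 moved past it and 2 changed sign. The number of reads behind a peak is unknown.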
